A study of Mus musculus with 6 samples.

Results

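The genes described here are 10 members of the EGF signalling family: the receptor genes Egfr, Erbb2, Erbb3 and Erbb4, and the ligand genes Nrg1, Tgfa, Areg, Ereg, Hbegf and Btc. They were taken by name from a table of 56941 gene IDs. All 10 were found, and 9 passed the filter on low counts, which 17072 genes passed in all. The libraries were made from lung cells of 7-day-old mouse pups, selected with magnetic beads against CD31, the adhesion molecule encoded by Pecam1 and carried by endothelial cells. Of the 6 libraries, 3 came from pups in room air (21% oxygen) and 3 from pups in hyperoxia (75% oxygen) that began on postnatal day 0. The strain, and whether a library pooled pups, count among details not given in the sources used here. The spread behind each p-value is that of these libraries, some of which may be technical repeats. Hyperoxia 2 differed in Y-linked RNA from hyperoxia 1 and 3, so it did not repeat either of them.

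Receptors of the family sit in the cell membrane as single chains, pair up when a ligand binds, and phosphorylate each other to switch on the RAS-ERK and PI3K-AKT cascades. TGF-alpha, amphiregulin, epiregulin, HB-EGF and betacellulin bind EGFR, and neuregulin-1 binds ERBB3 and ERBB4. ERBB2 has no known ligand and serves as the preferred partner of the others, while ERBB3 has a weak kinase and signals through its partner. Ligands are made as membrane proteins and released by proteases of the ADAM family. In the lung the family is best known from epithelium, where it takes part in growth and in repair after injury.

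Total counts ran from 39379793 to 42343192 per library. Endothelial markers were abundant in every library, the 12 summing to 13540 to 18660 CPM (counts scaled to the TMM-adjusted library size) in room air and 11430 to 15580 CPM in hyperoxia. Epithelial RNA was present too: 10 alveolar type 1 markers summed to 2485 to 3543 CPM in room air, against 6177 to 8209 CPM in hyperoxia. All of those 10 markers rose in hyperoxia by edgeR's quasi-likelihood test. Of the 12 endothelial markers, 10 had negative log2 changes (median -0.28), and 1, Egfl7, was called lower (-0.70). In each group 1 library stood apart by the lowest endothelial sum and the highest type 1 sum, room air 3 (13540 and 3543 CPM) and hyperoxia 2 (11430 and 8209 CPM). Y-linked transcripts were found in all room air libraries and in hyperoxia 2 (129.3 to 161.5 CPM per total count for the Y-linked genes together), whereas hyperoxia 1 and 3 held Xist at 165.5 and 234.7 CPM instead. Y-linked status and oxygen were thus partly confounded in the reported fit, which held no term for that status. Results are therefore also given without room air 3 and hyperoxia 2, and with Y-linked status as a term in the fit, which leaves the contrast resting on hyperoxia 2 as the one hyperoxia library with Y-linked RNA.

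The receptor genes Egfr and Erbb3 and the ligand genes Nrg1 and Tgfa rose in hyperoxia, by 1.86-fold to 2.76-fold. These are 4 of 9 tested members, where 6.77% of all tested genes were called higher and 11.2% were called in either direction at an adjusted p below 0.05. The members were chosen with earlier results of these data known, so the share describes them and is not independent evidence. The remaining 5, Erbb2, Areg, Ereg, Hbegf and Btc, did not pass. Over the 9 the median log2 change was 0.90, against -0.01 over all tested genes. No member was called lower by edgeR, DESeq2 or limma-voom, and 1, Erbb2, was lower at an unadjusted p below 0.05. Without room air 3 and hyperoxia 2 together, 4 members were higher and 1 lower, and the log2 changes of Nrg1, Egfr, Erbb3 and Tgfa were 1.48, 1.34, 0.96 and 0.71, each called. With Y-linked status as a term 6 were higher, and the same genes had 1.32, 1.59, 1.32 and 1.24.

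**Figure D1:**
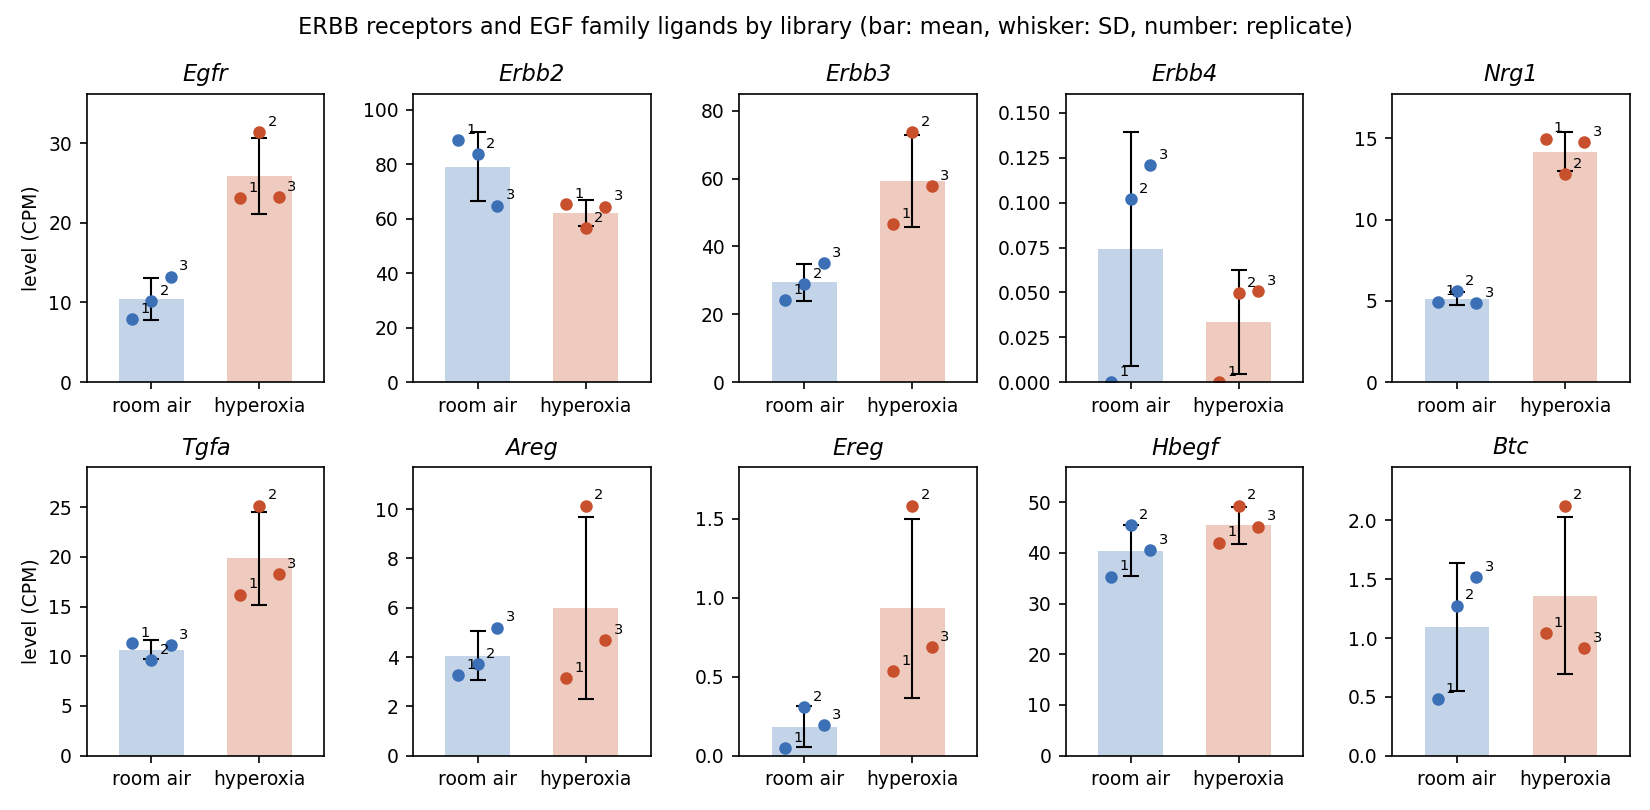
Level of each gene in every library, in CPM on a linear axis that starts at 0, with bars for the mean and whiskers for the SD of 3 libraries. The 3 hyperoxia points lie above the 3 room air points for Egfr, Erbb3, Nrg1, Tgfa and Ereg, and hyperoxia 2 is the highest point for 7 of 10 genes.

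Among the receptors, Egfr (ENSMUSG00000020122), which binds EGF, TGF-alpha and amphiregulin, stood at 7.91, 10.2 and 13.2 CPM in room air and at 23.1, 31.4 and 23.2 CPM in hyperoxia. Every hyperoxia library was above every room air library. Its mean rose from 10.4 ± 2.68 to 25.9 ± 4.74 CPM (SD, n = 3 per group), a log2 change of 1.31 (SE 0.21, adjusted p = 0.00284). The call held with each library left out in turn, with log2 changes of 1.13 to 1.51.

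Erbb3 (ENSMUSG00000018166), the receptor with a weak kinase that recruits PI3K, stood at 24.2, 29.0 and 35.2 CPM in room air and at 46.6, 73.7 and 57.8 CPM in hyperoxia. The groups did not overlap, as was so in this direction for 16.5% of tested genes. It rose from 29.5 ± 5.49 to 59.4 ± 13.6 CPM and the log2 change was 1.011 (SE 0.18, adjusted p = 0.00546). Schwann cells also depend on Erbb3, and their myelin gene Mbp was at 73.9 CPM in hyperoxia 2 but between 14.8 and 31.0 CPM in the other 5 libraries. Sox10, a transcription factor gene of the same cells, was at 1.14 CPM in hyperoxia 2 and at 0.917 CPM or less elsewhere. Their markers S100b and Foxd3 were at 0.593 and 0 CPM in hyperoxia 2, inside the range of the other libraries. Without hyperoxia 2, Erbb3 had a log2 change of 0.83 (adjusted p = 0.0103). The part of Schwann cell RNA in the Erbb3 values was not tested.

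Erbb2 (ENSMUSG00000062312), the shared partner receptor, had the highest mean level of the receptors in both groups, although not in hyperoxia 2, and a change of the opposite sign. It stood at 88.8, 83.7 and 64.8 CPM in room air and at 65.4, 56.5 and 64.4 CPM in hyperoxia, where hyperoxia 1 was just above room air 3. The means were 79.1 ± 12.6 and 62.1 ± 4.87 CPM (log2 change -0.35, SE 0.13, adjusted p = 0.123). Erbb2 was called lower without room air 3 (log2 change -0.47, adjusted p = 0.0257) and without room air 3 and hyperoxia 2 together (-0.42, adjusted p = 0.039). Erbb4 (ENSMUSG00000062209), the other neuregulin receptor, was close to absent from these libraries, with 0, 4 and 5 counts in room air and 0, 2 and 2 in hyperoxia. A count of 0 allows up to 3 counts, which per total count is 0.0714 CPM for room air 1 and 0.0708 CPM for hyperoxia 1. Such floors cover counting error only, and Erbb4 was not tested.

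**Figure D2:**
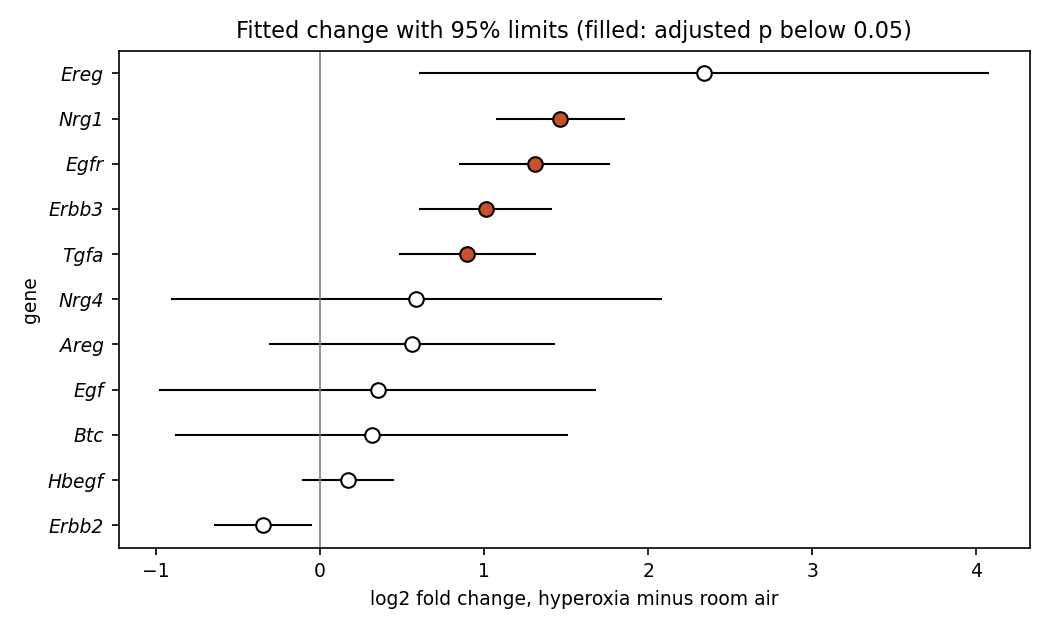
Fitted log2 change of hyperoxia against room air for the 9 tested members and for Egf and Nrg4, with 95% limits as lines and filled points where the adjusted p was below 0.05. The limits of Nrg1, Egfr, Erbb3 and Tgfa lie above 0, and those of Ereg run from 0.61 to 4.07.

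The make-up of the receptor transcripts differed between the groups. Levels of different genes were compared as CPM per kilobase of exonic length. Erbb2 held 78.3, 73.7 and 63.9% of the summed receptor level in room air and 56.2, 41.9 and 51.5% in hyperoxia. Erbb3 held 18.5, 22.1 and 30.0% in room air and 34.7, 47.3 and 40.0% in hyperoxia. Egfr took 3.21 to 6.01% in room air and 8.53 to 10.7% in hyperoxia. For these 3 receptors the groups did not overlap, and room air 3 lay nearest to hyperoxia. These are shares of a whole, so a rise of Erbb3 alone lowers the share of Erbb2. In CPM the groups overlapped for Erbb2. The ratio of Erbb3 to Erbb2 per kilobase was 0.236, 0.3 and 0.47 in room air and 0.617, 1.13 and 0.777 in hyperoxia, so that only hyperoxia 2 held more Erbb3 than Erbb2.

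**Figure D3:**
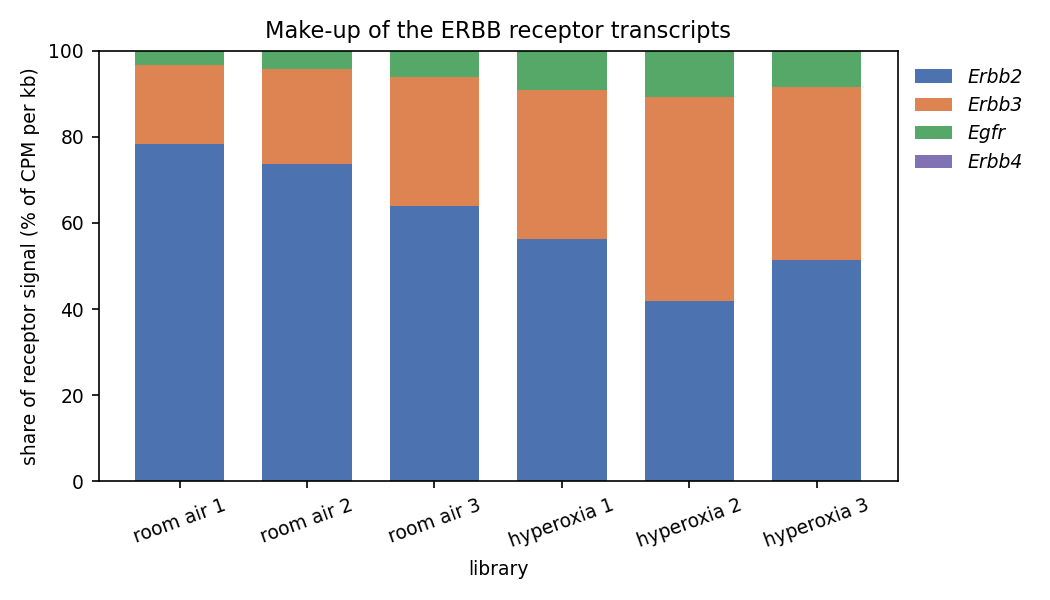
Share of each receptor gene in the summed receptor level of a library, in percent of CPM per kilobase, stacked to 100 for the 6 libraries. Erbb2 holds 63.9% or more in room air and 56.2% or less in hyperoxia, and Erbb4 is too low to be seen.

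Among the ligands, Nrg1 (ENSMUSG00000062991), which encodes neuregulin-1, had the smallest adjusted p of the members. It stood at 4.96, 5.59 and 4.85 CPM in room air and at 14.98, 12.8 and 14.75 CPM in hyperoxia. The lowest hyperoxia library was thus well above the highest in room air. Its mean rose from 5.13 ± 0.397 to 14.2 ± 1.19 CPM (log2 change 1.47, SE 0.18, adjusted p = 0.000757). Its values ran from 1.42 to 1.54 with each library left out in turn, and Nrg1 was called each time. Hyperoxia 2, the highest library for most members, was the lowest hyperoxia library for Nrg1.

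Tgfa (ENSMUSG00000029999), the gene for the EGFR ligand TGF-alpha, stood at 11.3, 9.59 and 11.1 CPM in room air and at 16.2, 25.1 and 18.2 CPM in hyperoxia. The groups did not overlap, and hyperoxia 2 stood above the other two. It rose from 10.7 ± 0.935 to 19.9 ± 4.69 CPM (log2 change 0.90, SE 0.19, adjusted p = 0.0117). Without room air 2 Tgfa was not called (log2 change 0.82, adjusted p = 0.0572).

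Areg (ENSMUSG00000029378) and Ereg (ENSMUSG00000029377) encode amphiregulin and epiregulin, neighbouring EGFR ligand genes that many stimuli induce quickly. Areg stood at 3.27, 3.72 and 5.19 CPM in room air and at 3.15, 10.1 and 4.67 CPM in hyperoxia. Only hyperoxia 2 lay outside the room air range by more than a small margin. The log2 change was 0.56 (95% limits -0.31 to 1.43, adjusted p = 0.421), and it was -0.05 without hyperoxia 2. With Y-linked status as a term, where hyperoxia 2 alone stands for hyperoxia, Areg was called higher (1.32, adjusted p = 0.0258).

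Ereg was counted 2, 12 and 8 times in room air and 22, 64 and 27 times in hyperoxia, from 0.183 ± 0.129 to 0.933 ± 0.567 CPM. Every hyperoxia library was above every room air library, but the counts were small. Its log2 change of 2.34 (95% limits 0.61 to 4.07) did not pass (adjusted p = 0.0847). It was called by DESeq2 (adjusted p = 0.0305), without the filter on low counts (0.0457) and with Y-linked status as a term (0.0237).

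Hbegf (ENSMUSG00000024486), the gene for the heparin-binding EGFR ligand, was the most abundant ligand gene, and little separated the groups. It stood at 35.3, 45.5 and 40.5 CPM in room air and at 42.02, 49.3 and 45.1 CPM in hyperoxia, with overlap. The log2 change was 0.17 (95% limits -0.11 to 0.44, adjusted p = 0.445). Btc (ENSMUSG00000082361), the betacellulin gene, was counted 20 to 63 times in room air and 36 to 86 times in hyperoxia. Its log2 change of 0.32 had limits of -0.88 to 1.51 (adjusted p = 0.767), and the sign turned without room air 1 (-0.05) or hyperoxia 2 (-0.16).

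Ordered by CPM per kilobase in room air, Erbb2 (15.2 ± 2.43) stood first, followed by Hbegf (8.368 ± 1.056), Erbb3 (4.90 ± 0.912), Areg (3.34 ± 0.826) and Tgfa (1.64 ± 0.144). Below them came Egfr (0.922 ± 0.237), Nrg1 (0.496 ± 0.0383), Btc (0.242 ± 0.12), Ereg (0.0442 ± 0.0313) and Erbb4. Of these neighbours, Erbb3 and Areg had overlapping library ranges. In hyperoxia Erbb3 (9.87 ± 2.26) moved to second place, between Erbb2 (11.9 ± 0.935) and Hbegf (9.41 ± 0.754), with ranges that overlapped both. The order of the other genes was as in room air, with overlap between Areg and Tgfa, Tgfa and Egfr, and Btc and Ereg. Nrg1 (1.37 ± 0.115) remained clear of its neighbours.

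Start-site sequence was at hand for 6 of the 10 genes: Egfr, Erbb2, Erbb4, Areg, Btc and Tgfa. Erbb3, Ereg and Nrg1 were not matched, and the chromosome that holds Hbegf was left out of the search. The 250 bases before the start site (RefSeq, GRCm38.p6) are shown for Egfr and Tgfa, a receptor and its ligand that rose together, and for Areg, a ligand of the same receptor that did not pass. They lie at chr11:16751953-16752202, chr6:86194972-86195221 and chr5:91139349-91139598, each on the + strand. Capitals mark matches on either strand to 4 motifs, which were TATAAA for the TATA box, GGGCGG for the GC box, TGACGTCA for the cyclic AMP response element and TGANTCA for the AP-1 site.
Egfr: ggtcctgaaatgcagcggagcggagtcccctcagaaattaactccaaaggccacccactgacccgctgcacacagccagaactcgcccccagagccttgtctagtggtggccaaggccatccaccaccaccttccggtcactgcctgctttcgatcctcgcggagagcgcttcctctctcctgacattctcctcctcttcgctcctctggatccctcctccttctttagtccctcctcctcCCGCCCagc
Tgfa: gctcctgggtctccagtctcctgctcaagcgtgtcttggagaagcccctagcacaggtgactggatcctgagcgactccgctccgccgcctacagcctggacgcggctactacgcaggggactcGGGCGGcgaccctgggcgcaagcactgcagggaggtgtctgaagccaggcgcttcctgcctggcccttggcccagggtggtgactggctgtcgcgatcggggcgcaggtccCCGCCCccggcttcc
Areg: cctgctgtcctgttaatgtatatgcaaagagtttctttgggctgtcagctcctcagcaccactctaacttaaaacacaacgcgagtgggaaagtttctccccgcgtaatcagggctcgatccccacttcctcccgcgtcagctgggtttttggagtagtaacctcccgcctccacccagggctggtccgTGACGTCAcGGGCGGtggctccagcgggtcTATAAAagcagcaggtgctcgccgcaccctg
Egfr had 1 GC box, starting 9 bases before the start site, and Tgfa had 2, at 126 and 15 bases. Areg had a TATA box at 31 bases, a GC box at 52 and a response element at 61, none of which overlapped. Among 32851 windows of the same length, 12.4% held TATAAA, 32.7% GGGCGG, 1.55% TGACGTCA and 6.75% TGANTCA. The AP-1 letters were in none of the 6 members' windows. G and C made up 60.8% of the Egfr window, 69.2% of the Tgfa window and 57.2% of the Areg window, against a median of 52.4% over all windows.

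Marker sums of several other cell types were set beside the members. Of 6 general epithelial genes, Cdh1, Krt8, Krt18, Krt19 and Cldn4 rose and Epcam did not pass. Together they summed to 337.9, 327.7 and 488.3 CPM in room air and to 666.1, 910.7 and 803.4 CPM in hyperoxia, and Cdh1 averaged 195 CPM already in room air. The 10 alveolar type 2 markers gave no call (median log2 change -0.06) and summed to 13260 to 20630 CPM in room air, against 14590 to 17750 CPM in hyperoxia. Among 10 macrophage and monocyte genes, Marco (log2 change 2.21) and Cd68 (0.87) rose. Among 4 tested mesothelial genes Msln rose (1.76), but 2 changes were positive and 2 negative (median -0.46). The 7 genes listed for mast cells and basophils summed to 717.8 to 1009 CPM in room air, against 396.9 to 547.2 CPM in hyperoxia. Which cells carried that sum was not tested. The 5 erythroid genes summed to 32 to 51.61 CPM in room air, against 11.02 to 27.38 CPM in hyperoxia. In these lists 1 and 2 genes were called lower. Per 100 CPM of the general epithelial sum, Erbb3 stood at 7.17, 8.85 and 7.20 CPM in room air and at 7.00, 8.09 and 7.20 CPM in hyperoxia. On that scale the groups overlapped. They overlapped for Egfr too (2.34 to 3.11 in room air, 2.89 to 3.47 in hyperoxia), for Tgfa (2.27 to 3.34 and 2.27 to 2.76) and for Nrg1 (0.993 to 1.70 and 1.41 to 2.25). Per 100 CPM of the type 1 sum, Egfr (0.318 to 0.374 and 0.365 to 0.382) and Nrg1 (0.137 to 0.2 and 0.156 to 0.242) overlapped as well. Erbb3 (0.975 to 1.02 and 0.754 to 0.91) and Tgfa (0.313 to 0.455 and 0.262 to 0.306) were lower in hyperoxia on that scale. So were Erbb2 (1.83 to 3.57 and 0.689 to 1.06) and Hbegf (1.14 to 1.6 and 0.6 to 0.71). Areg was lower as well, while Ereg and Btc overlapped. On the general epithelial scale Erbb2 (13.3 to 26.3 and 6.21 to 9.83) and Hbegf (8.3 to 13.9 and 5.41 to 6.31) were lower too. Areg, Ereg and Btc overlapped there. In bulk libraries, more cells of a type and more RNA per cell cannot be told apart. The part of epithelial RNA in the rises of Egfr, Erbb3, Tgfa and Nrg1 was not tested.

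Per 100 CPM of the 12 endothelial markers, Erbb2 was at 0.476, 0.46 and 0.478 CPM in room air and at 0.42, 0.495 and 0.437 CPM in hyperoxia. Hbegf per 100 CPM of the same markers was at 0.189 to 0.299 CPM in room air, against 0.27 to 0.431 CPM in hyperoxia. Both overlapped, whereas Egfr, Erbb3, Tgfa, Ereg and Nrg1 on this scale did not and were higher in hyperoxia. In CPM the same 5 members did not overlap either, as was so in this direction for 16.5% of tested genes. The share of tested genes on the endothelial scale was not counted. The endothelial sum ran from 13540 to 18660 CPM in room air and from 11430 to 15580 CPM in hyperoxia. A lower marker sum raises every gene on its scale, and a higher one lowers it.

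**Figure D4:**
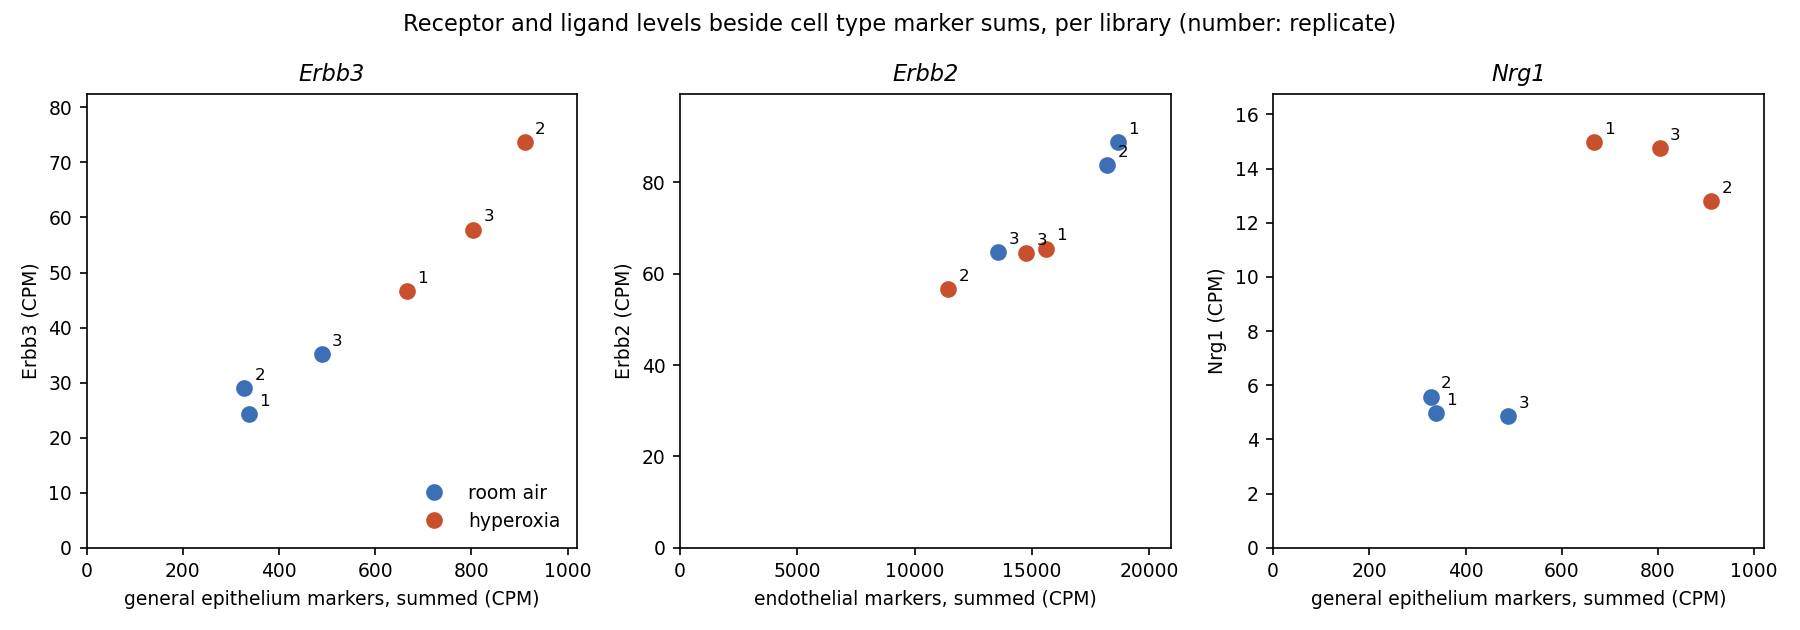
Levels of Erbb3, Erbb2 and Nrg1 in CPM against the summed CPM of a marker list in the same library, with 1 point per library and both axes starting at 0. Room air 3 and hyperoxia 2 hold the highest epithelial sum and the highest Erbb3 of their group, while Nrg1 sits at 4.85 to 5.59 CPM in room air, against 12.8 to 14.98 CPM in hyperoxia.

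Hyperoxia 2 was the highest hyperoxia library for 7 of 10 members (Egfr, Erbb3, Areg, Ereg, Hbegf, Btc and Tgfa) and the lowest for 2 (Erbb2 and Nrg1). Over all tested genes it was the highest of the 3 for 39.9%. A list of 14 genes that warm tissue digestion can induce, mostly immediate early genes with the heat shock genes Hspa1a and Hspa1b, was summed too, since Areg, Ereg and Hbegf are also known as quickly induced genes. They summed to 7764 to 11710 CPM in room air, against 12790 to 13620 CPM in hyperoxia, and 8 of them rose, Egr2 with a log2 change of 1.21 (SE 0.18). Their part in the ligand values was not tested.

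The remaining ligands of the family were scarce. Egf, the founding ligand, was counted 12 to 43 times in room air and 27 to 36 times in hyperoxia (log2 change 0.35, adjusted p = 0.767). Nrg4, an ERBB4 ligand, was counted 8 to 26 and 15 to 33 times (log2 change 0.59, adjusted p = 0.644). Epgn and Nrg3 had at most 4 counts in a library and Nrg2 between 2 and 56, and these 3 were not tested.

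Beyond the ligands and receptors, 6 lists held 85 other genes of ERBB signalling, the 5 remaining ligands among them. Of 82 tested, 13 rose (15.9%) and 1 fell (1.22%), where 6.77% and 4.41% of all tested genes did, and their median log2 change was 0.10. The rises numbered 8 without hyperoxia 3, 9 without room air 3 and hyperoxia 2 together, and 10 with Y-linked status as a term. Among 15 genes for ligand release, 2 rose and 13 did not pass (median 0.05). Timp3, an inhibitor of metalloproteases including ADAM17, rose from 320.0 ± 55 to 656 ± 72 CPM (log2 change 1.04, SE 0.15). Syn3 on the other strand shares 21.28% of the exonic bases of Timp3. Adam9, a membrane protease, rose from 61.2 ± 9.6 to 113 ± 15.3 CPM (log2 change 0.89, SE 0.14). Adam17, the main sheddase of EGFR ligands, stood at 117 ± 1.50 and 106 ± 2.30 CPM (log2 change -0.13, adjusted p = 0.421). Its groups did not overlap, as was so in this direction for 14.4% of tested genes.

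Of 14 genes for receptor inhibition and turnover, 2 rose and 12 did not pass (median 0.12). DESeq2 called 3 of them higher and 2 lower. Lrig1, a membrane inhibitor of the receptors, stood at 11.4, 10.9 and 12.8 CPM in room air and at 15.6, 25.2 and 17.5 CPM in hyperoxia (log2 change 0.73, SE 0.19, adjusted p = 0.03445). Cblc, the ubiquitin ligase of the CBL family found in epithelia, rose from 4.27 ± 1.44 to 8.41 ± 0.894 CPM (log2 change 0.98, SE 0.26, adjusted p = 0.0384). The Lrig1 call was lost when the library left out was room air 1 (adjusted p = 0.0989), hyperoxia 2 (0.0958), hyperoxia 3 (0.0667) or room air 2 (0.1225), and for Cblc the same held for room air 1 (0.111), room air 2 (0.124) and each hyperoxia library (0.0612 to 0.122). Scaling by library size only also ended both calls, at an adjusted p of 0.052 and 0.0533. Lrig1 was also not called without room air 3 and hyperoxia 2 together (0.0753), nor Cblc with Y-linked status as a term (0.0546).

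The core of the cascade held no called gene. Of 19 adaptor and RAS-ERK genes, 0 were called by edgeR or limma-voom and 2 were lower by DESeq2, while 3 were higher and 2 lower at an unadjusted p below 0.05. Their log2 changes ran from -0.42 to 0.31, and Mapk3, the most abundant, stood at 579 ± 66.8 and 538 ± 66 CPM. In the PI3K, PLC and STAT branch 2 of 15 genes rose and 13 did not pass (median 0.00). These were the kinase genes Src, from 44.1 ± 2.06 to 85.9 ± 13.5 CPM (log2 change 0.96, SE 0.13, adjusted p = 0.00118), and Akt2, from 61.6 ± 3.18 to 87.7 ± 3.82 CPM (log2 change 0.51, SE 0.10, adjusted p = 0.00806).

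Of 17 genes that respond to ERK activity, 7 rose, 1 fell and 9 did not pass (median 0.19). Etv4, a transcription factor gene, stood at 3.87, 2.78 and 4.90 CPM in room air and at 12.5, 13.3 and 15.5 CPM in hyperoxia (log2 change 1.83, SE 0.23, adjusted p = 0.000979). Dusp4, an ERK phosphatase gene, rose from 17.99 ± 1.22 to 41.8 ± 4.65 CPM (log2 change 1.21, SE 0.13), and the immediate early gene Ier3 and the growth regulator Myc rose with log2 changes of 0.97 and 0.81. Ier3 was not called without room air 3 and hyperoxia 2 together (adjusted p = 0.132). Dusp6, another ERK phosphatase gene, fell from 406 ± 48.6 to 301 ± 13.5 CPM (log2 change -0.43, SE 0.13, adjusted p = 0.0494). Leaving out room air 1, room air 2 or any hyperoxia library ended this call (adjusted p = 0.113 to 0.163), as did Y-linked status as a term (0.112).

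Phlda1, Ccnd1 and Plaur, named after their values were seen, also rose (log2 changes 0.69, 0.59 and 0.44). Genes on the other strand share 32.97% of the exonic bases of Phlda1 and 23.36% of those of Ccnd1. Phlda1 was not called without room air 1, room air 2, hyperoxia 2 or hyperoxia 3 (adjusted p = 0.0778 to 0.144), nor Ccnd1 without room air 2 (0.0762) or hyperoxia 3 (0.0895). Plaur was called only in the full set and without room air 3 among these fits (adjusted p = 0.0602 to 0.106 in the others). With Y-linked status as a term Phlda1 (0.0567) and Ccnd1 (0.072) were not called, nor were Phlda1 (0.107) and Plaur (0.0747) without room air 3 and hyperoxia 2 together. The feedback genes Spry1, Spry2 and Spry4, also named with their values known, had log2 changes of 0.12, 0.14 and -0.06 and did not pass. Summed, the 14 genes that digestion can induce were at 12790 CPM or more in hyperoxia and 11710 CPM or less in room air. Their part in these values was not tested.

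**Figure D5:**
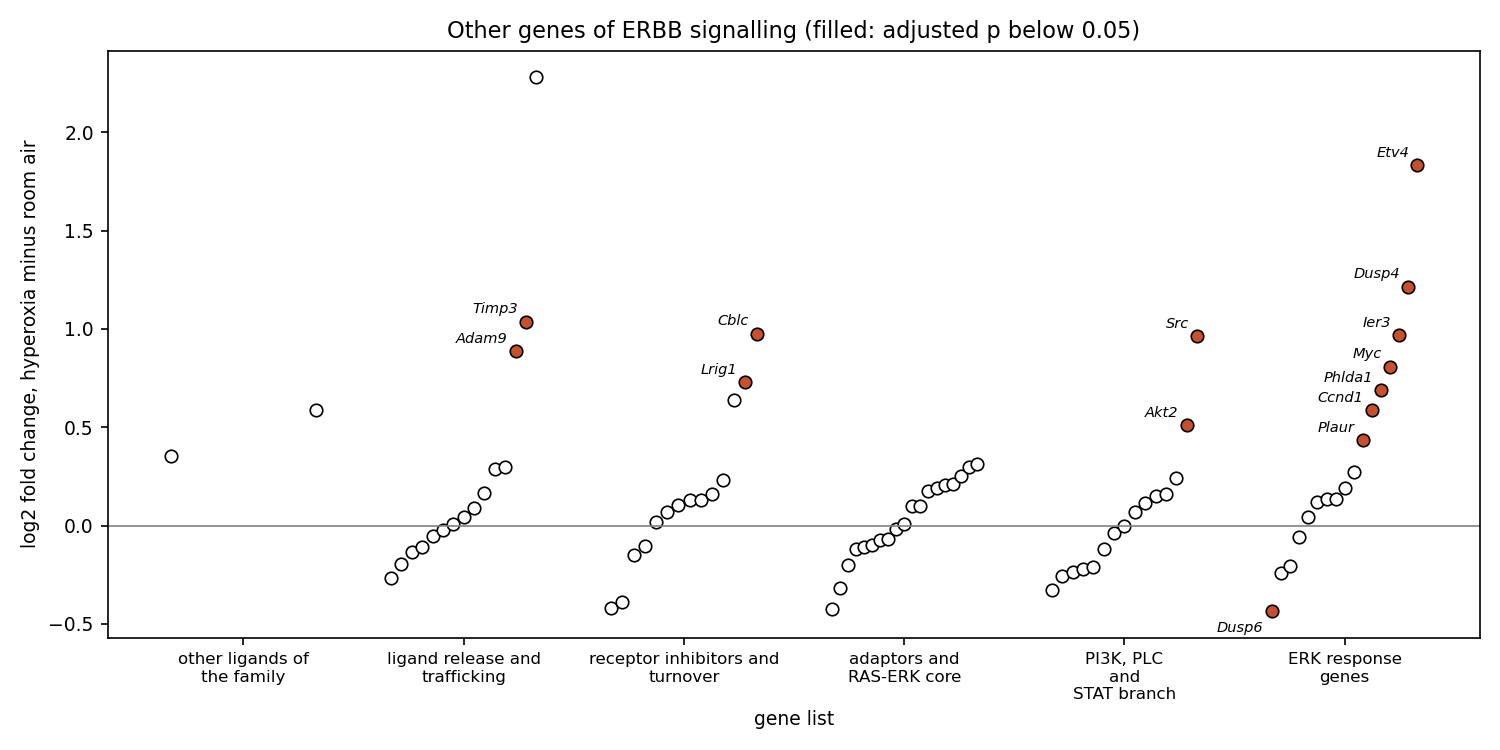
Log2 change of hyperoxia against room air for the 82 tested genes of 6 signalling lists, sorted within each list, with filled and named points where the adjusted p was below 0.05. Filled points number 7 above and 1 below 0 among the ERK response genes, and there are none among the adaptors and RAS-ERK genes.

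Among genes on no list with a mean of at least 5 CPM, those most like Nrg1 across the 6 libraries were Bbc3, Lyve1 and Fbxw9, with Pearson r of 0.997, 0.996 and 0.996 on log2 CPM. The libraries fall into the 2 groups, and r above 0.95 was reached by 239 genes, so these names describe the pattern only. Bbc3 rose from 38.1 to 73.3 CPM, Lyve1 from 781 to 1986 CPM and Fbxw9 from 20.5 to 33.8 CPM, against 5.13 to 14.2 CPM for Nrg1.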

How the data were processed

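The deposited values were raw counts per Ensembl gene ID in 6 libraries. Per the submitters' processing notes, the tools were HISAT2 2.2.1, Subread 2.0.6 with featureCounts, and DESeq2, and the build was GRCm39, without roles. Strand setting and multimapping count among details not given in the sources used here. Symbols came from GENCODE M21 by ID and matched 51948 IDs. Exonic lengths and overlaps are also from M21 (GRCm38), so CPM per kilobase is approximate. At most 4.66% of a member's exonic bases overlap another gene.

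With R 4.3.3 and edgeR 4.0.16, genes were kept by filterByExpr (minimum count 10, minimum total 15), scaled by TMM and compared between hyperoxia and room air by the robust quasi-likelihood test without covariates. Benjamini-Hochberg adjustment ran over all tested genes. Adjusted p-values are edgeR's unless another tool is named. Standard errors and 95% limits were taken from the F statistic and are approximate. DESeq2 1.42.0 and limma 3.58.1 (voom) served as alternatives, beside other scalings and filters, libraries left out and a replicate block. Y-linked status as a term and leaving out room air 3 with hyperoxia 2 were chosen after seeing the data.

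The members and lists were chosen with earlier results of these data known. Named were all 10 members, the other ligands, up to 4 called genes of each pathway list per direction by size (the most abundant where none was called) and the 3 genes most like the called member of smallest adjusted p. Adam17, Phlda1, Ccnd1, Plaur and the Spry genes were named outside this rule. Markers were named as far as a result needed them. Some Schwann cell markers are not reported here. No library was a duplicate of another in its group (lowest chi-square per degree of freedom 15.2).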

Additional observations from a re-analysis of the deposited data

How the results depend on the processing

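Members called higher numbered 4 in the reported fit, 3 to 4 with 1 library left out, 5 without a filter or by DESeq2, 6 with Y-linked status as a term and 4 under every other alternative. Members called lower numbered 0 to 1 with 1 library left out and 1 without hyperoxia 2 and room air 3 together. With 1 library left out, Areg ran from -0.0524 (without hyperoxia 2) to 0.866, and Btc from -0.157 (without hyperoxia 2) to 0.6263, with -0.0505 without room air 1. Erbb4 could be fitted only without a filter (log2 change -1.08, adjusted p = 0.811), and Ereg was not tested at 1 CPM in 3 libraries.

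Over all genes, 681 to 1095 were higher and 376 to 749 lower with 1 library left out, against 1156 and 753. Lower genes numbered 1243 without a filter, 1242 by DESeq2 and 1223 with Y-linked status as a term. Pathway genes called higher numbered 8 to 13 with 1 library left out, against 13. Those called lower, 1 in the reported fit, numbered 0 to 1 with 1 library left out, 2 with DESeq2 size factors or Y-linked status as a term, and 3 with library size only, upper-quartile scaling, no filter or 1 CPM in 3 libraries. They numbered 5 by DESeq2. The causes were not tested.

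With replicate number as a block, 4 members were higher and 0 lower, and 0 pathway genes were lower. Same-numbered libraries had deviations that correlated at 0.112, -0.039 and -0.09, so the numbers were not taken to pair the samples, and not every library correlated best with its own number. At total counts of 39379793 to 42343192, Erbb4, Ereg and Btc rest on at most 5, 64 and 86 counts in a library.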
